A study of Mus musculus with 3 samples.

Results

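The genes described here are those of the aryl hydrocarbon receptor (AHR) response, namely the receptor gene *Ahr*, its feedback inhibitors *Ahrr* and *Tiparp*, and the target enzymes *Cyp1a1*, *Cyp1b1* and *Nqo1*. They were chosen by name, as 6 of the 31053 genes listed in every library, and all 6 were detected. Single-cell RNA was measured in Peyer's patch (PP) endothelial cells (EC) of mice, in 1 control library and 2 EC-iCOUPOE libraries (replicates 1 and 2). The control library is labelled WT with the strain C57BL/6. The EC-iCOUPOE mice carried CDH5(PAC)CreERT2;COUP-TFIIOE/OE, an inducible transgene for the venous transcription factor COUP-TFII (gene *Nr2f2*) that a Cre under the endothelial *Cdh5* promoter switches on. Cells of all 3 libraries came from mice aged 6 to 10 weeks, 14 to 19 days after tamoxifen, and cells of male and female cohorts were loaded together. The number of mice in a library is not stated in the sources used here and each library is treated as 1 sample. The study's methods describe Cre-negative littermates as controls, and the single control library here is the one labelled WT. Transgene and endogenous *Nr2f2* are counted together.

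AHR is a transcription factor of the cytosol that is activated when it binds a ligand. Ligands include pollutants, plant compounds of the diet and products that gut microbes make from tryptophan, which makes the intestine a tissue of high exposure. Activated AHR enters the nucleus, pairs with ARNT and binds DNA at a short core motif, GCGTG. It switches on monooxygenases such as CYP1A1 and CYP1B1, which break down many of its ligands, and AHRR and TIPARP, which damp the response. *Cyp1a1* is therefore widely used as a readout of AHR activity, whereas *Nqo1*, a quinone reductase, also responds to the oxidative stress factor NRF2.

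The promoters are shown for the gene with the most restricted pattern, *Cyp1a1*, for the gene with the most copies of the core motif, *Ahrr*, and for a gene with none, *Nqo1*. The 250 bases before the annotated start are printed 5′ to 3′ along the gene's strand (RefSeq sequences, GRCm38.p6). Capitals mark the core GCGTG or, on the other strand, CACGC.
Cyp1a1, chr9:57697363-57697612, plus strand: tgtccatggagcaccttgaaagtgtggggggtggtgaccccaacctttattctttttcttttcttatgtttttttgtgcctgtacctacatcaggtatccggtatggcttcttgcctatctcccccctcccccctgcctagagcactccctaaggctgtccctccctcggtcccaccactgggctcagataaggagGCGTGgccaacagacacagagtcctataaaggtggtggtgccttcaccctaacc
Ahrr, chr13:74292332-74292581, minus strand: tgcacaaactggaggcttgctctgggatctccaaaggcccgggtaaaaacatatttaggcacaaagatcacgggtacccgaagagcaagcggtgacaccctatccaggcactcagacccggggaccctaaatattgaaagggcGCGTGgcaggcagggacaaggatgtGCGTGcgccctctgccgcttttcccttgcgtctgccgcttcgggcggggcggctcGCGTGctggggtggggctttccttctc
Nqo1, chr8:107403206-107403455, minus strand: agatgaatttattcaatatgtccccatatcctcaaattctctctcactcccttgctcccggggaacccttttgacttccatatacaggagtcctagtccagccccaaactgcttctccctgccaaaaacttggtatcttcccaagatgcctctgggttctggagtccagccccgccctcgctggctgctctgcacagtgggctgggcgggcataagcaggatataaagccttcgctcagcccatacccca
Windows of 300 bases, from 250 before to 50 after the start, were available for 5 of the 6 genes, and 4 held the core motif on either strand. *Cyp1a1* had it once, with its first letter 54 bases before the start. *Ahrr* had it at 107, 82 and 27 bases before the start. On the other strand *Cyp1b1* had it 76 bases and *Tiparp* 170 bases before the start. The motif is short, and 32.4% of 32851 promoters held it (10639), whereas 3.92% held it at least 3 times. A match describes the letters and is not a site of binding, and no match in *Nqo1* says only that these letters are not in this window.

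In the GENCODE annotation of GRCm38 all 6 genes are protein coding. *Ahr* (ENSMUSG00000019256) lies at chr12:35497974-35535038 and *Ahrr* (ENSMUSG00000021575) at chr13:74211118-74292331, both on the minus strand. *Tiparp* (ENSMUSG00000034640) lies at chr3:65528410-65555518 on the plus strand. *Cyp1a1* (ENSMUSG00000032315) lies at chr9:57687928-57703824 on the plus strand. The promoter window printed for it, which ends at chr9:57697612, lies inside this interval. The start that the window is counted from is thus not the first base of the GENCODE gene. *Cyp1b1* (ENSMUSG00000024087) lies at chr17:79701537-79715061 and *Nqo1* (ENSMUSG00000003849) at chr8:107388225-107403206, both on the minus strand.

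The libraries differed in depth and in make-up. The control library held 6080 barcodes and 17341398 unique molecular identifiers (UMIs, each standing for 1 captured transcript), replicate 1 held 4959 and 17417260, and replicate 2 held 1441 and 3548983. After filtering and removal of doublets, 5312, 4648 and 1223 cells were classed. Classes were named only from marker lists, so names are to be read as "X-like". The exception is the prefix *Enpp6*+, which came from the leading genes of that cluster itself. Clusters 3, 4 and 11 got no name from the lists. A name needed a score (mean log2 ratio of the markers to all other blood EC) of 0.5. It was withheld where the leading genes of a cluster held more markers of another list. Cluster 3 scored too low, whereas clusters 4 (capillary, 1.025) and 11 (arterial, 1.44) fell to the second rule. The class capillary EC thus leaves out cluster 4, with 308 control cells, but holds clusters 2 and 10, which scored 0.694 and 0.675. All 11 genes of the blood endothelium list were detected in each blood EC class of every library. Stroma was almost confined to the control library, with 964 cells named fibroblasts, 1106 lamina propria fibroblasts, 315 fibroblastic reticular cells (FRC), 205 enteric glia and 99 subepithelial fibroblasts against at most 5 cells of any of these classes in an EC-iCOUPOE library. Lymphatic EC were 0 in the control library and 909 and 126 in the EC-iCOUPOE libraries. Cells with *Xist* and no Y-linked UMIs numbered 4092 in the control library against 215 with the opposite pattern, and 1793 against 1141 and 600 against 209 in replicates 1 and 2. The control library and replicate 2 shared 12 cell barcodes, and replicate 1 shared 0 with either. *Nr2f2* checked the labels. In the control library it was at 14.9 counts per 1000000 UMIs of the class (CPM) in capillary EC, 12.8 CPM in arterial EC and 253 CPM in postcapillary venule EC (PCV). It was at 2246 and 1359, 1252 and 592, and 1941 and 1643 CPM in the same classes of replicates 1 and 2. *Nr2f2* was also higher in pericytes, at 269, 1208 and 625 CPM, and at 639 CPM in the leukocyte-like cells of replicate 1.

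Levels of the 6 genes are CPM of the UMIs summed over the cells of a class, with exact Poisson 95% intervals. Values in triplets follow the order control, replicate 1, replicate 2. A summed level cannot tell fewer cells with the transcript from less transcript per cell. Shares of cells with a UMI are given after thinning each cell to 1000 UMIs, with exact Clopper-Pearson 95% intervals. The intervals cover counting error only, not the spread between mice. Over all classed cells *Ahr* gave 2485 UMIs, *Tiparp* 1078, *Nqo1* 811, *Cyp1b1* 566, *Cyp1a1* 451 and *Ahrr* 126.

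**Figure D1:**
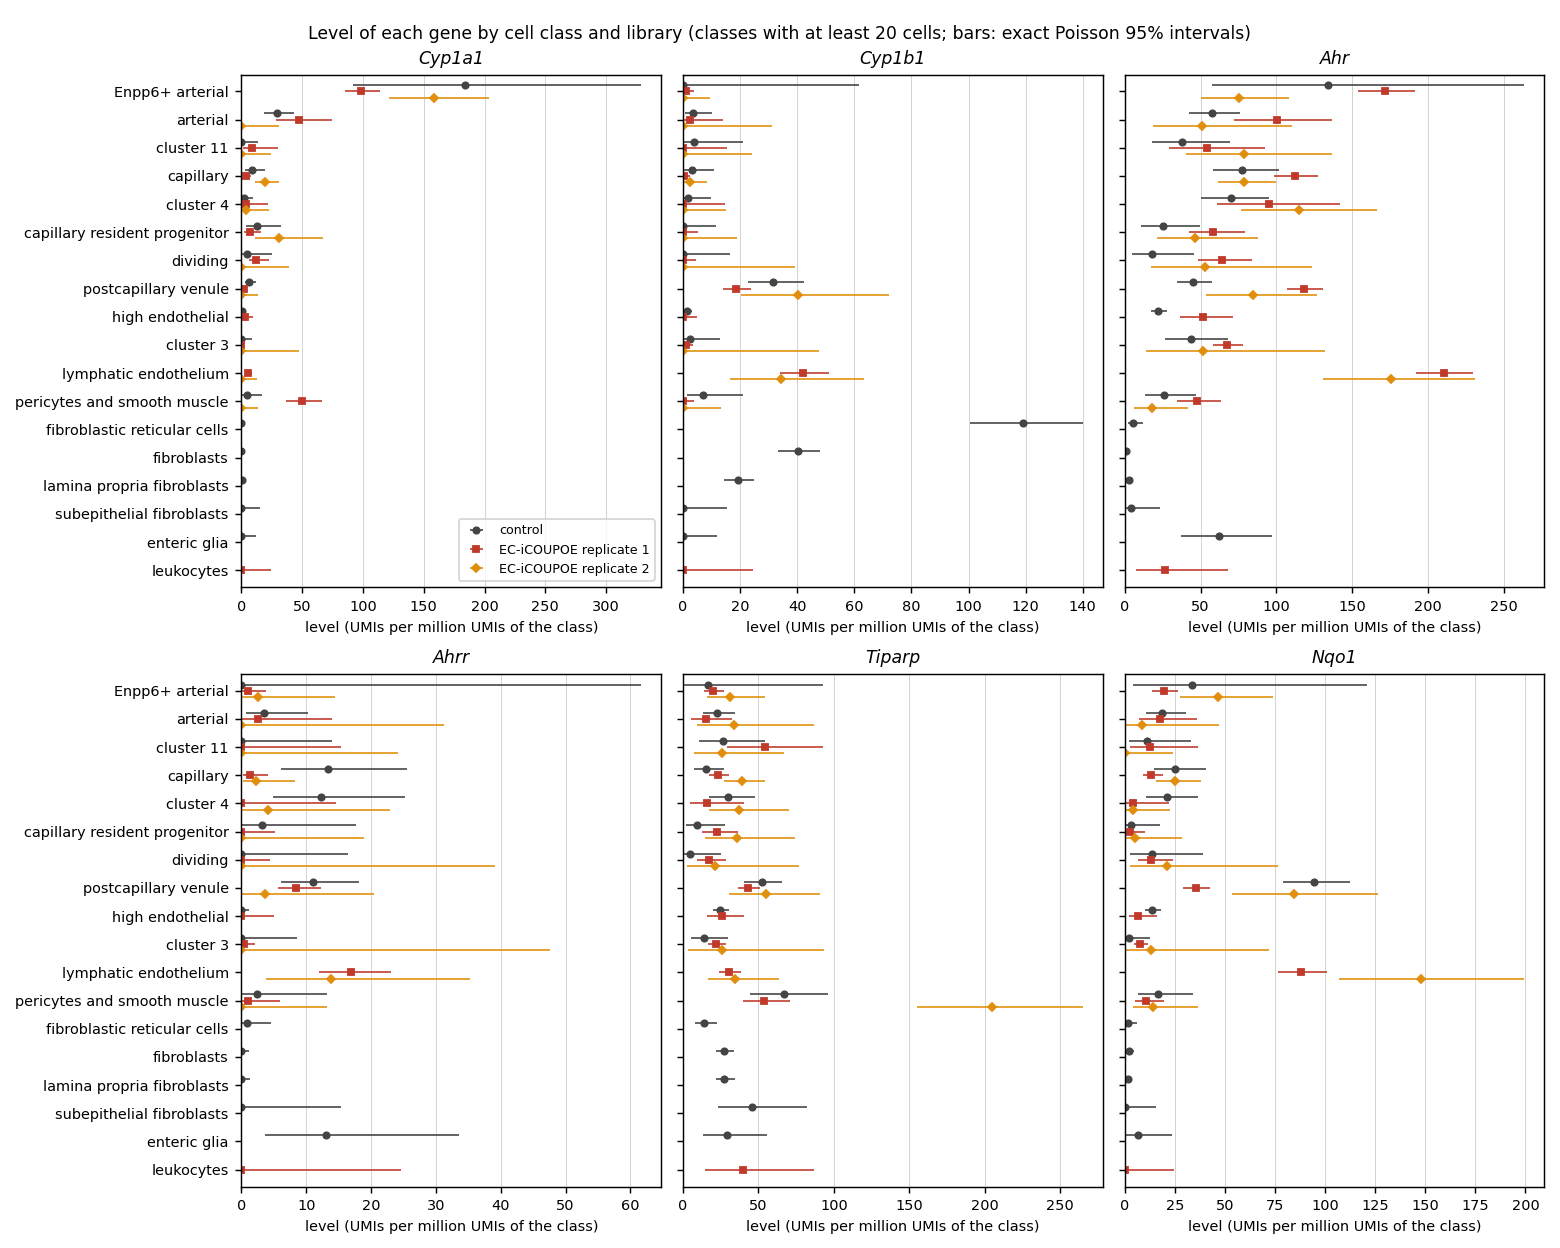
Level of each of the 6 genes in each cell class with at least 20 cells in a library. The horizontal axis is the level in CPM of the class, points are libraries (control, EC-iCOUPOE replicates 1 and 2) and bars are exact Poisson 95% intervals. *Cyp1a1* was highest in *Enpp6*+ arterial EC (184, 98.4 and 159 CPM), *Cyp1b1* in FRC (119 CPM, control library), *Ahr* in lymphatic EC (210 and 176 CPM in the EC-iCOUPOE libraries), *Tiparp* in pericytes of replicate 2 (205 CPM) and *Nqo1* in lymphatic EC and PCV.

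*Ahr*, the receptor, was found in EC, enteric glia and pericytes in these libraries and was close to absent from fibroblasts. In the control library it was at 134 CPM (57.7 to 263) in *Enpp6*+ arterial EC, 77.5 CPM (57.9 to 102) in capillary EC, 57.2 CPM (42.3 to 75.7) in arterial EC and 44.8 CPM (34.3 to 57.5) in PCV. High endothelial cells (HEC), which line the venules through which lymphocytes enter, had 22.05 CPM (17.3 to 27.7). Fibroblasts had 1.01 CPM (0.208 to 2.95), lamina propria fibroblasts 2.89 CPM (1.25 to 5.69) and FRC 5.75 CPM (2.31 to 11.8), and their intervals lay below those of capillary EC, arterial EC, PCV and HEC. Subepithelial fibroblasts had 1 UMI (4.17 CPM, 0.106 to 23.2). Enteric glia, which support the nerves of the gut, had 62.1 CPM (37.4 to 97.0), and pericytes and smooth muscle had 26.2 CPM (13.1 to 46.9). Of these 130 pericytes and smooth muscle cells 100 also held a UMI of the blood endothelium list. The part of such RNA in their *Ahr* level was not tested. In the order of levels every neighbour overlapped with the next, so that the order is read only between its ends. In the EC-iCOUPOE libraries lymphatic EC came first, at 210 CPM (192 to 230) and 176 CPM (131 to 231). Their interval lay above that of each other class in replicate 1, and in replicate 2 it overlapped with those of the unnamed clusters 4 (115 CPM, 76.3 to 166), 11 (78.3 CPM, 40.5 to 137) and 3 (51.6 CPM, 14.1 to 132). Of the thinned lymphatic EC 18.9% (16.4 to 21.6%) and 16.7% (10.6 to 24.3%) had an *Ahr* UMI, against 1 of 30 leukocyte-like cells of replicate 1 (3.33%, 0.0844 to 17.2%). The other libraries held 18 and 3 leukocyte-like cells without an *Ahr* UMI, with upper limits of 18.5% and 70.8%. With so few cells that background is not well set. Thinned leukocyte-like cells had 0 UMIs of the other 5 genes in every library.

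In PCV, the venules downstream of the capillaries, *Ahr* was higher in both EC-iCOUPOE libraries. It was at 44.8 CPM in the control library, 118 CPM (107 to 131) in replicate 1 and 84.3 CPM (53.5 to 127) in replicate 2, which are 61, 377 and 23 UMIs in 422, 763 and 94 cells. The log2 ratios to the control library were 1.40 (1.01 to 1.82) and 0.91 (0.15 to 1.63), so that both counting intervals lay above 0. Of all genes tested in PCV, 27% had both EC-iCOUPOE libraries above the control library. How many of them had both counting intervals above 0 was not counted. The thinned shares moved the same way, at 4.98% (3.11 to 7.51%), 10.5% (8.40 to 12.9%) and 9.57% (4.47 to 17.4%), and without thinning they were 13.7%, 34.5% and 20.2%. In edgeR's quasi-likelihood test over all genes of PCV the log2 difference was 1.25 (SE 0.44). The unadjusted p of this test was 0.0158 and the adjusted p 0.501, and *Ahr* was not called. The make-up by *Xist* and Y-linked UMIs differed between the libraries. Within cells with *Xist* and no Y-linked UMIs the PCV levels were 43.5, 118 and 74.6 CPM, and within cells of the opposite pattern they were 41.2, 120 and 96.7 CPM. Within cluster 0, the larger of the 2 clusters of PCV, they were 38.2 CPM (27.1 to 52.5), 107 CPM (93.2 to 121) and 92.02 CPM (57.0 to 141). Within cluster 8, the smaller, they were 62.45 CPM (39.6 to 93.7), 141.5 CPM (119.9 to 165.8) and 45.0 CPM (5.45 to 162). Replicate 2 thus lay below the control library in cluster 8, on 2 UMIs in 15 cells.

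Across all 10 classes with at least 20 cells in every library, both EC-iCOUPOE libraries lay above the control library for *Ahr* in 7 classes and both lay below it in 0. The 7 were capillary EC (77.5, 112 and 78.8 CPM), capillary resident progenitors (CRP; 25.3, 58.5 and 46.2 CPM), PCV, dividing EC (17.9, 64.4 and 53.0 CPM) and the unnamed clusters 3 (43.8, 67.5 and 51.6 CPM), 4 (70.0, 95.2 and 115 CPM) and 11 (37.8, 54.2 and 78.3 CPM). Of all genes tested in these classes, both libraries lay above the control library in 32.3%, 32.8%, 27%, 42%, 31.2%, 26.3% and 31%, in that order, and both lay below it in 40.1%, 36.3%, 35.6%, 25.6%, 30.9%, 36.9% and 36.3%. The classes share their 3 libraries and are not 7 independent results. Among the 7, the counting interval of the log2 ratio of replicate 1 lay above 0 in PCV, capillary EC (0.53, 0.10 to 1.00), CRP (1.21, 0.10 to 2.51) and dividing EC (1.85, 0.41 to 3.78), whereas that of replicate 2 did so in PCV alone. In capillary EC replicate 2 and the control library were nearly level (log2 ratio 0.02, −0.52 to 0.57). The libraries also drew their capillary EC from different clusters, cluster 6 holding 431 of the 447 control cells and 37 and 48 of the EC-iCOUPOE cells. Within cluster 6 *Ahr* was at 77.0 CPM (57.0 to 102), 156 CPM (77.8 to 279) and 63.7 CPM (23.4 to 139), and all 3 intervals overlapped. In *Enpp6*+ arterial EC (134, 172 and 75.4 CPM), arterial EC (57.2, 100.4 and 50.7 CPM) and pericytes (26.2, 47.4 and 17.9 CPM) replicate 1 lay above and replicate 2 below the control library, and of all genes tested both lay above it in 40.9%, 23.5% and 26.3% and below it in 40.8%, 37.9% and 37.8%. In HEC *Ahr* was at 51.8 CPM (36.7 to 71.1) in the 96 cells of replicate 1 against 22.05 CPM, a log2 ratio of 1.23 (0.63 to 1.82), and replicate 2 held 6 HEC and 0 *Ahr* UMIs, so that HEC could not be fitted. Replicate 1 had the highest *Ahr* level of the 3 libraries in 8 of the 10 classes compared, the exceptions being clusters 4 and 11. Replicate 1 also differed from both other libraries in its matrix header and shared no cell barcodes with them, and the part of this in the levels was not tested.

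**Figure D2:**
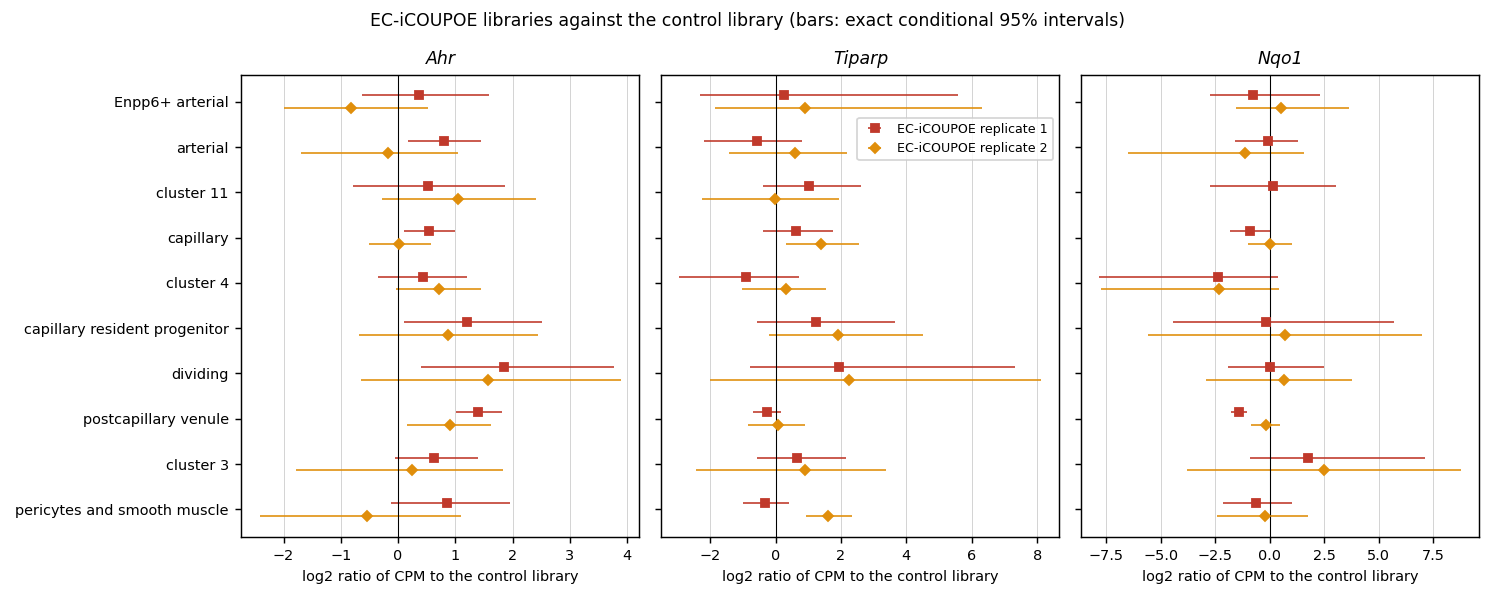
Log2 ratio of the CPM in each EC-iCOUPOE library to that in the control library, for *Ahr*, *Tiparp* and *Nqo1* in the 10 classes compared. Points are libraries, bars are exact conditional 95% intervals of the counts, and the vertical line marks no difference. For *Ahr* both points lie to the right of the line in 7 classes, and in PCV both intervals do (1.40 and 0.91). For *Nqo1* in PCV replicate 1 lies to the left (−1.42) and replicate 2 near the line (−0.17).

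*Ahrr*, which competes with AHR for its partner ARNT, was the least detected of the 6 genes. Only PCV held enough UMIs for the fit, with 11.01 CPM (6.16 to 18.2) in the control library, 8.48 CPM (5.59 to 12.3) in replicate 1 and 3.67 CPM in replicate 2, where it rests on 1 UMI. Both EC-iCOUPOE libraries lay below the control library, as 35.6% of all genes tested in PCV did, and the intervals of replicate 1 and the control library overlapped (edgeR log2 difference −0.53, SE 0.72, adjusted p = 1.00). In capillary EC it was at 13.4 CPM (9 UMIs), 1.38 CPM (3 UMIs) and 2.28 CPM (2 UMIs), with log2 ratios of −3.28 (−5.80 to −1.28) and −2.56 (−5.80 to −0.28). Both of these intervals lay below 0, but the 14 UMIs of the class were too few for the fit. Of all genes tested in capillary EC, 40.1% had both EC-iCOUPOE libraries below the control library, and how many had both intervals below 0 was not counted. All 9 control UMIs lay in cluster 6 (14.15 CPM, 6.47 to 26.9). There the EC-iCOUPOE libraries had 0 UMIs in 37 and 48 cells, which leaves up to 52.2 and 39.15 CPM open. Within this cluster no difference was thus shown. In cluster 4 the counts were 7, 0 and 1 UMIs. Lymphatic EC had 16.9 CPM (11.99 to 23.1) and 13.8 CPM (3.75 to 35.3), and enteric glia 13.1 CPM (3.56 to 33.5), on 39, 4 and 4 UMIs.

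*Tiparp*, an ADP-ribosyltransferase that AHR induces and that in turn limits AHR, was the most widespread of the 6 genes. In the classes with at least 20 control cells it ranged from 4.47 CPM (0.113 to 24.9) in dividing EC to 66.7 CPM (44.3 to 96.4) in pericytes and smooth muscle, with 52.1 CPM (40.7 to 65.8) in PCV and 27.3 CPM (21.7 to 33.9) in fibroblasts, and each level overlapped with the next. In PCV it was at 52.1, 43.3 and 55.0 CPM, and the ratios of both EC-iCOUPOE libraries included no difference (−0.27, −0.69 to 0.17, and 0.08, −0.83 to 0.89). In capillary EC it was at 14.9 CPM (7.15 to 27.4), 23.01 CPM (17.1 to 30.3) and 38.8 CPM (26.9 to 54.2). Replicate 2 lay above the control library by a log2 ratio of 1.38 (0.33 to 2.56) and replicate 1 by 0.63 (−0.37 to 1.77). The edgeR difference of 1.08 (SE 0.61) had an adjusted p of 0.615. Within cluster 6, which held 431 of the 447 control cells, *Tiparp* was at 14.15 CPM (6.47 to 26.9) in the control library. The 37 and 48 cells of replicates 1 and 2 in it had 0 *Tiparp* UMIs (up to 52.2 and 39.15 CPM). The rise was thus not seen within this cluster. Of the 6 classes in which *Tiparp* was tested, both libraries lay above the control library in 3, which were capillary EC, cluster 3 and *Enpp6*+ arterial EC, against 32.3%, 31.2% and 40.9% of all genes tested there.

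Pericytes and smooth muscle, the mural cells that wrap the vessels, showed a library that stood alone. *Tiparp* was at 66.7 CPM (44.3 to 96.4), 53.8 CPM (40.0 to 71.0) and 205 CPM (155 to 265), so that replicate 2 lay above the other libraries and replicate 1 within the interval of the control library. The thinned shares were 4.62% (1.71 to 9.78%), 7.62% (4.42 to 12.1%) and 11.2% (5.52 to 19.7%) and overlapped. The edgeR difference was 1.05 (SE 0.89, adjusted p = 1.00). The summed level of the blood endothelium list in these cells also differed between libraries, at 3872, 5026 and 668 CPM, and its part in the result was not tested.

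*Cyp1a1*, the monooxygenase used as a readout of AHR activity, was concentrated in a group of arterial-like cells in all 3 libraries. This group, cluster 1, had *Enpp6*, *Cyp1a1* and *Stmn2* as its leading genes by fold, and 10 of the 11 arterial markers were detected in it. The arterial name rests on a low score. The mean log2 ratio of the arterial markers to all other blood EC was 0.65, where 0.5 was needed for a name. It was 2.20 and 2.72 in clusters 7 and 13, named arterial EC, and 1.44 in cluster 11, which stayed unnamed. *Cyp1a1* was not among the genes used for clustering, but the cluster was set apart from the other arterial EC after its values had been seen, so the level there is a description. It was at 184 CPM (91.8 to 329) in the 44 control cells, 98.4 CPM (84.9 to 114) in the 591 cells of replicate 1 and 159 CPM (121 to 204) in the 154 cells of replicate 2. The arterial EC had 29.2 CPM (18.9 to 43.1), 47.7 CPM (28.7 to 74.5) and 0 CPM (up to 31.2). In each library the interval of *Enpp6*+ arterial EC lay above that of every other class with 20 or more cells. Single clusters of replicate 1 overlapped with it, namely arterial cluster 13 (72.1 CPM, 38.39 to 123.3, 55 cells) and capillary cluster 6 (70.79 CPM, 22.99 to 165.2, 37 cells). In the control library these clusters lay below it, at 0 CPM (up to 19.19) and 9.43 CPM (3.461 to 20.53). In replicate 2 they had 0 UMIs in 9 and 48 cells (up to 161.6 and 39.15 CPM). Capillary EC had 8.95 CPM (3.28 to 19.5), 4.14 CPM (1.89 to 7.86) and 19.4 CPM (11.3 to 31.1). CRP, the angiogenic progenitors of the capillaries, had 12.6 CPM (3.44 to 32.3), 6.96 CPM (2.26 to 16.2) and 30.8 CPM (11.3 to 67.0). These levels lay above capillary EC in each library but with overlapping intervals. The 4, 5 and 6 UMIs of CRP came from 1 of 150, 4 of 201 and 1 of 75 cells. The order thus rests on a single cell in the control library and in replicate 2. FRC and fibroblasts of the control library had 0 UMIs in 315 and 964 cells, which leaves levels of up to 3.03 and 1.24 CPM open, and lamina propria fibroblasts had 2 UMIs in 1106 cells. Cluster 3 had 0 UMIs in all 3 libraries (127, 481 and 24 cells).

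Within *Enpp6*+ arterial EC a *Cyp1a1* UMI was found in part of the cells, and at this depth a cell without one is not shown to lack the transcript. Of the thinned cells 9.09% (2.53 to 21.7%), 8.97% (6.79 to 11.6%) and 12.3% (7.59 to 18.6%) had a *Cyp1a1* UMI, against 0 of 18, 30 and 3 leukocyte-like cells. Without thinning the shares were 11.4%, 14.4% and 17.5%, and the cells with a UMI held a mean of 2.20, 2.21 and 2.26 UMIs and a maximum of 4, 7 and 11. The intervals of the 3 shares overlapped. The class itself held 44, 591 and 154 cells, and with 1 control library the genotype, the sort and the library cannot be told apart in these numbers. The ratios to the control library were −0.90 (−1.77 to 0.13) and −0.21 (−1.15 to 0.86) on the log2 scale. The edgeR difference was −0.29 (SE 0.59, adjusted p = 0.931), while the median over all genes tested in this class was 0.26. Both libraries lay below the control library, as 40.8% of all genes tested there did, and the direction turned to 0.61 within cells with *Xist* and no Y-linked UMIs.

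**Figure D3:**
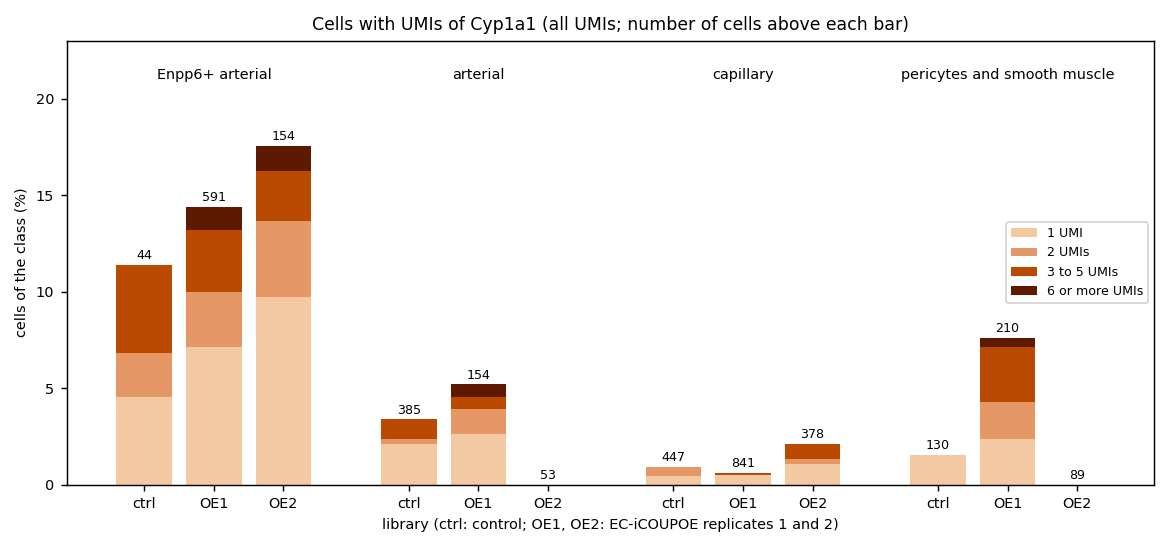
Share of cells with UMIs of *Cyp1a1* in 4 classes and 3 libraries. The vertical axis is the percentage of the cells of the class, shades split the cells by their number of *Cyp1a1* UMIs, all UMIs are counted without thinning, and the number above each bar is the number of cells. *Enpp6*+ arterial EC reach 11.4%, 14.4% and 17.5%, whereas pericytes and smooth muscle stand out only in replicate 1.

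In *Enpp6*+ arterial EC of replicate 1 an *Ahr* UMI was found in 26.4% (15.3 to 40.3%) of the 53 thinned cells with a *Cyp1a1* UMI and in 15.1% (12.1 to 18.4%) of the 538 cells without. In replicate 2 the shares were 5.26% (1 of 19 cells) and 5.19% (7 of 135 cells). The intervals overlapped in both libraries.

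*Cyp1a1* in pericytes and smooth muscle came mostly from replicate 1, with 2, 46 and 0 UMIs (4.76, 49.5 and 0 CPM). The 46 UMIs of replicate 1 lay in 16 of 210 cells, 11 of them in a single cell. All 16 cells also held a UMI of the blood endothelium list, 13 of them of *Cdh5* and 9 of *Enpp6*. Of the other 194 pericytes of that library 176 held a UMI of the list, 85 of *Cdh5* and 25 of *Enpp6*. The median depth was 5914 UMIs in the 16 cells against 3982 in the others. The 18 pericytes of replicate 1 without any endothelial UMI held 0 *Cyp1a1* UMIs, a subset examined after the values were seen. Since only 16 of all 210 pericytes had a *Cyp1a1* UMI, 18 cells are too few to read this 0 as an absence. The edgeR difference of 2.66 (SE 1.64, adjusted p = 1.00) rests on this library, since replicate 2 had 0 UMIs in 89 cells.

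*Cyp1b1*, the sister monooxygenase, was found in other classes than *Cyp1a1*. In the control library it was at 119 CPM (100.4 to 140) in FRC, the stromal cells that hold lymphoid tissue together, and this interval lay above that of every other class with at least 20 cells. It was at 40.1 CPM (33.2 to 48.0) in fibroblasts and 19.1 CPM (14.3 to 25.01) in lamina propria fibroblasts. Of the thinned FRC 10.2% (7.05 to 14.0%) had a UMI, and 31.7% did without thinning. Among blood EC only PCV held it at a similar level, with 31.6 CPM (22.8 to 42.5), 18.5 CPM (14.1 to 23.9) and 40.3 CPM (20.1 to 72.2). In every other blood EC class it had at most 4 UMIs in a library. In PCV replicate 1 lay below the control library (log2 ratio −0.77, −1.36 to −0.17) and replicate 2 did not (0.35, −0.75 to 1.33), and the edgeR difference was −0.34 (SE 0.57, adjusted p = 1.00). Lymphatic EC had 41.95 CPM (34.0 to 51.2) and 34.4 CPM (16.5 to 63.3). In replicate 1 their larger cluster had 48.2 CPM (38.9 to 59.15) and the smaller 12.35 CPM (4.01 to 28.8). FRC and fibroblasts could not be compared between genotypes, since the EC-iCOUPOE libraries held at most 4 of these cells.

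*Nqo1*, the quinone reductase, was highest in PCV and lymphatic EC. In PCV it was at 94.7 CPM (79.1 to 113) in the control library, 35.5 CPM (29.2 to 42.7) in replicate 1 and 84.3 CPM (53.5 to 127) in replicate 2. Replicate 1 was low and replicate 2 was level with the control library, with log2 ratios of −1.42 (−1.79 to −1.04) and −0.17 (−0.88 to 0.48). The thinned shares were 8.06% (5.64 to 11.1%), 3.41% (2.24 to 4.95%) and 7.45% (3.05 to 14.7%). The CPM intervals of the EC-iCOUPOE replicates did not overlap with each other, while those of their thinned shares did, and the edgeR difference of −0.78 (SE 0.53) had an adjusted p of 1.00. Lymphatic EC had 88.2 CPM (76.5 to 101.2) and 148 CPM (107 to 199), and here too replicate 2 was the higher library. In replicate 1 the larger lymphatic cluster had 95.9 CPM (82.5 to 110.9) and the smaller 51.9 CPM (32.1 to 79.3). In capillary EC *Nqo1* was at 25.3, 13.4 and 25.1 CPM and both ratios included no difference (−0.93, −1.84 to 0.03, and −0.01, −0.99 to 0.99). Of the 3 classes in which *Nqo1* was tested, both libraries lay below the control library in capillary EC and PCV, against 40.1% and 35.6% of all genes tested. The fibroblast classes had 0 to 2.36 CPM.

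Over all 6 genes, 25 of 60 pairs of gene and class had the 30 UMIs needed for the fit, and 0 of the 25 were called at an adjusted p of 0.05 (edgeR's quasi-likelihood test, adjusted p 0.501 to 1.00). An unadjusted p under 0.05 was found for 1 pair, *Ahr* in PCV. Of the 9029 genes tested in PCV, 562 had such a p by the same edgeR test. Of all genes tested, 0.491% were called in capillary EC, 0.465% in PCV, 2.1% in dividing EC, 0.284% in cluster 11, 0.0914% in pericytes, 0.0205% in cluster 4 and 0% in *Enpp6*+ arterial EC, arterial EC, CRP and cluster 3. In these last 4 classes 572, 221, 411 and 503 genes had an unadjusted p under 0.05 by edgeR, and DESeq2 called 16, 10, 18 and 19. The fit estimates the spread from the 2 EC-iCOUPOE libraries and assumes that the lone control library varies alike. Simulated 4-fold changes were called for 39.9% of the changed genes tested in capillary EC and 34.4% in PCV, so that a missed call does not show equal levels.

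The rest of the pathway was followed with a list of 27 further genes, covering the receptor complex, other targets and drug metabolism, makers of ligand and electron donors of the monooxygenases. Over the 10 classes 144 pairs of gene and class were tested and 2 were called, both in dividing EC. There 13 genes of the list were tested, and 2.1% of all genes tested were called, the highest share of the 10 classes. *Gstm1*, a glutathione transferase, rose from 26.8 CPM (9.84 to 58.4) to 202 CPM (172 to 235) and 413 CPM (294 to 565), an edgeR log2 difference of 3.27 (SE 0.70, adjusted p = 8.3e-04). *Il4i1*, an amino acid oxidase whose products can act as AHR ligands, fell from 188 CPM (135 to 254) to 29.1 CPM (18.7 to 43.4) and 53.0 CPM (17.2 to 124), a difference of −2.63 (SE 0.56, adjusted p = 8.2e-04). In the control library the 23 dividing cells had a median of 9847 UMIs against 4552 and 4205 in the EC-iCOUPOE libraries, and *Il4i1* was also at 253 CPM in control HEC. *Gstm1* was at 131, 418 and 669 CPM in capillary EC (edgeR log2 difference 2.13, adjusted p = 0.163) and at 165, 447 and 590 CPM in PCV (1.72, adjusted p = 0.286), and it was not called there. Its log2 difference was above 0 in each of the 10 classes, from 0.13 in cluster 11 to 3.27 in dividing EC. The direction was thus not particular to dividing EC. The median log2 difference of the tested list members ranged from −0.29 in arterial EC to 0.15 in CRP, and that of all genes was 0.0034 to 0.039 in every class except *Enpp6*+ arterial EC.

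The most abundant other genes of the list were the chaperone subunits and electron donors. In PCV *Hsp90ab1*, whose product holds AHR in the cytosol, was at 1686, 1629 and 1085 CPM, and *Hsp90aa1* at 347, 225 and 257 CPM. *Cyb5a*, an electron donor, was at 431, 676 and 422 CPM, and *Cyb5r3* at 277, 298 and 224 CPM. *Socs2*, a cytokine signalling inhibitor reported as an AHR target, was at 518, 399 and 862 CPM. *Arnt* and *Cyp1a2* were named after their values had been seen. *Arnt*, the partner of AHR, was at 25.7, 26.7 and 29.3 CPM, and *Cyp1a2* had 0 UMIs in all classed cells. None of the genes tested in PCV from this list was called.

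Cells of the EC-iCOUPOE libraries were then set side by side by their *Nr2f2* UMIs, which count the transgene and the endogenous gene together. After thinning, 134 capillary EC of replicate 1 had 0 and 707 had 1 or more *Nr2f2* UMIs, and *Ahr* was found in 9.70% (5.27 to 16.0%) and 13.4% (11.01 to 16.2%) of them. In replicate 2 the shares were 8.70% (4.25 to 15.4%) of 115 cells and 6.46% (3.81 to 10.2%) of 263 cells. The order thus differed between the libraries, and the intervals overlapped in both. *Tiparp* was found in 1 of the 134 cells (0.746%, 0.0189 to 4.09%) and 2.83% (1.736 to 4.335%) of the 707 in replicate 1. In replicate 2 it was found in 2 of the 115 cells (1.74%, 0.211 to 6.14%) and 4.94% (2.66 to 8.30%) of the 263. Its order was the same in both libraries, with overlapping intervals. In *Enpp6*+ arterial EC *Cyp1a1* was found in 10.3% (5.24 to 17.7%) of 107 cells without and 8.68% (6.33 to 11.6%) of 484 *Nr2f2*-positive cells of replicate 1, and in 10.6% (3.55 to 23.1%) of 47 and 13.1% (7.34 to 20.98%) of 107 cells in replicate 2. In PCV *Ahr* was found in 11.6% (7.03 to 17.7%) of 155 cells without and 10.2% (7.91 to 12.9%) of 608 *Nr2f2*-positive cells of replicate 1, and in 1 of 27 (3.70%, 0.0937 to 19.0%) and 8 of 67 cells (11.9%, 5.30 to 22.2%) in replicate 2. Here too the order differed between the libraries and the intervals overlapped. An *Nr2f2* UMI also depends on its own capture, so cells without a UMI are not cells without the transgene.

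**Figure D4:**
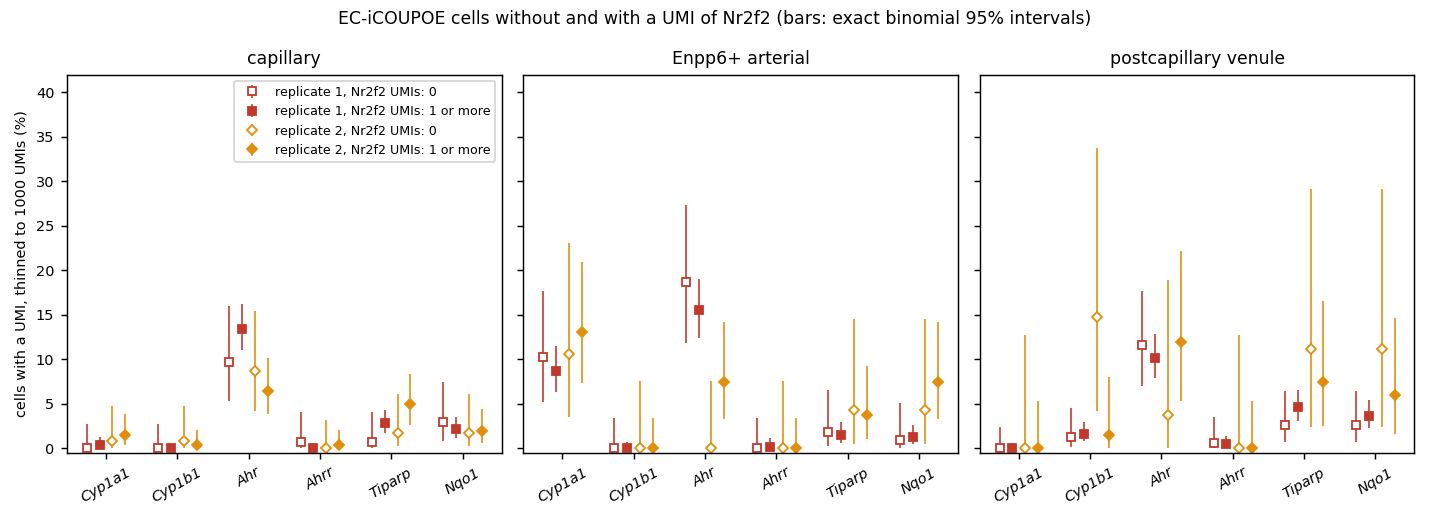
Share of EC-iCOUPOE cells with a UMI of each of the 6 genes, in cells with 0 (open symbols) and with 1 or more (filled symbols) *Nr2f2* UMIs. The vertical axis is the percentage of cells after thinning to 1000 UMIs, panels are capillary EC, *Enpp6*+ arterial EC and PCV, and bars are exact binomial 95% intervals. *Ahr* in capillary EC is at 9.70 and 13.4% in replicate 1 and at 8.70 and 6.46% in replicate 2, with overlapping bars.

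The patterns of 5 of the genes were compared with those of 10058 genes over 40 combinations of class and library with at least 20 cells, by Pearson's r of log2(CPM + 10). *Ahrr* had too few UMIs for this. The points share libraries, depth and cell classes, so the values are descriptions and carry no test. *Cyp1a1* was most like *Enpp6* (r = 0.69), *Npr3* (0.64) and *2410004B18Rik* (0.63), and *Ahr* most like *Notch1* (0.84), *Galnt18* (0.82) and *Caskin2* (0.81). *Cyp1b1* was most like *Il33* (0.88), *Rspo3* (0.82) and *Il7* (0.79). *Tiparp* was most like *Slc20a2* (0.77), *Cebpb* (0.75) and *Rasl11a* (0.70), and *Nqo1* most like *Wipf3* (0.80) and *Ptafr* (0.73). Among the genes of the response themselves the highest value was that of *Ahr* and *Nqo1* (0.56), followed by *Cyp1b1* and *Nqo1* (0.38) and by *Ahr* and *Cyp1a1* (0.37). *Cyp1a1* and *Cyp1b1* gave −0.25.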

How the data were processed

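The authors aligned reads to the mm10 transcriptome with Cell Ranger 3.0.2 (the matrix header of EC-iCOUPOE replicate 1 names 3.1.0) and deposited raw UMI counts per gene and barcode. The labels name the v3 platform together with a v2 kit, and the chemistry of each library was not resolved. Replicate 1 differed from both other libraries in its matrix header, in its listed rows and in sharing 0 cell barcodes with them. A level at which replicate 1 stands alone cannot be told apart from a technical difference of that library. Barcodes passed with 500 or more genes, 1000 or more UMIs and a mitochondrial share of up to 10% (5473, 4750 and 1243 for control, replicates 1 and 2). Scrublet in scanpy 1.11.5 called 138, 96 and 9 doublets, which were left out. Also left out were 23, 6 and 11 mixed cells of blood endothelium clusters. These held at least as many UMIs of markers of other cell types as of the blood endothelium list. Seurat 5.3.0 integrated and clustered the libraries in 2 rounds (30 components, 20 neighbours, Louvain resolution 1), with the 6 genes left out of the clustering genes. UMIs summed per library and class, for genes with at least 30 UMIs over the libraries, were fitted with edgeR 4.0.16 (TMM, quasi-likelihood, Benjamini-Hochberg over all genes, threshold 0.05). Alternatives were DESeq2 1.42.0, RLE size factors, no filter on UMIs, Louvain resolutions 0.6 and 1.6, doublets kept, cells split by *Xist* and Y-linked UMIs, a 2-fold rule, a mitochondrial limit of 5%, unthinned shares, a single cluster of a class and each EC-iCOUPOE library left out. Pericyte- and smooth muscle-like cells without a UMI of the blood endothelium list were an alternative chosen after seeing the data. Rows for TdTomato and CreERT2, present in the control library and replicate 2 but not in replicate 1, held 0 UMIs and were left out. In simulated data 2 of the unchanged genes among 8558 were called in capillary EC and 4 among 9029 in PCV.

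Named genes were the 6 genes in every class, list genes that were called or most abundant, and the 3 genes most like each in pattern, of which 1 is not reported here. The genes, lists and tests were chosen with earlier results of these data known. Replicates are libraries, and nothing says how many animals each holds.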

Additional observations from a re-analysis of the deposited data

Results flagged for a closer look

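*Ahr* was also detected in the barcodes that the filters left out, which entered no comparison. It was at 148 CPM (105 to 203) in the 209 such barcodes of EC-iCOUPOE replicate 1, 72.6 CPM (51.1 to 100.1) in the 607 of the control library and 33.3 CPM (16.0 to 61.2) in the 198 of replicate 2. The level of replicate 1 lay above that of the control library, and replicate 2 did not. These barcodes are of mixed cell types, which was not resolved.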

How the results depend on the processing

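No paired analysis was possible, since there was 1 control library and no pairing with an EC-iCOUPOE library is recorded. No member of the AHR response was called by an adjusted p under any alternative that gave one (lowest 0.325 over 148 fits). Of 233 alternatives 18 reversed the direction of the log2 ratio. Those of the 2-fold rule, 1 for each of the 25 pairs tested, carry the main ratio and could not reverse. *Cyp1a1* in *Enpp6*+ arterial EC gave 0.61 in cells with *Xist* and no Y-linked UMIs, and *Nqo1* there −0.012 at resolution 1.6. *Cyp1a1* in arterial EC gave −0.085 with DESeq2, −0.31 at resolution 0.6 and −0.66 with doublets kept. With doublets kept *Nqo1* in capillary EC gave 0.41, *Tiparp* in cluster 3 −0.062 and *Tiparp* in cluster 4 0.020. *Nqo1* in PCV gave 0.77 in cells with Y-linked and no *Xist* UMIs. Leaving out an EC-iCOUPOE library gave a value without a test, with the lowest and highest at −0.83 and 0.36 for *Ahr* and −0.79 and 0.49 for *Nqo1* in *Enpp6*+ arterial EC, −0.17 and 0.81 for *Ahr* in arterial EC, −1.11 and 1.12 for *Cyp1a1* in capillary EC, −0.91 and 0.31 for *Tiparp* in cluster 4, −0.55 and 0.86 for *Ahr* and −0.31 and 1.62 for *Tiparp* in pericytes, and −0.77 and 0.35 for *Cyp1b1* and −0.27 and 0.077 for *Tiparp* in PCV. Replicate 2 had 0 *Cyp1a1* UMIs in arterial EC and pericytes and gave no ratio there. By the rule of at least 2-fold in both libraries *Ahr* in dividing EC was called (fitted log2 difference 1.56). This rests on 4 UMIs in 23 control cells and 5 UMIs in 20 cells of replicate 2. The rule called many of the 5244 genes tested in that class, as counted below.

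The number of genes called moved more. In the order *Enpp6*+ arterial, arterial, capillary, CRP, clusters 11, 3 and 4, dividing, pericytes and PCV, the 2-fold rule called 2332, 287, 898, 500, 256, 846, 219, 675, 415 and 566 genes. The 675 in dividing EC, *Ahr* among them, were out of 5244 genes tested. Without the filter on UMIs 139, 57, 464, 182, 75, 123 and 70 were called in the first 7 of these classes, 59 in pericytes and 181 in PCV. DESeq2 called 16, 10, 90 and 18 in the first 4, 19 in cluster 3, 7 in cluster 4, 16 in dividing EC and 11 in pericytes. RLE size factors gave 33 in arterial EC, 0 in capillary EC, 4 in cluster 4 and 0 in pericytes. Resolution 0.6 gave 31 in arterial EC, 103 in capillary EC, 104 in CRP, 78 in cluster 11 and 81 in cluster 4, and resolution 1.6 gave 15 in arterial EC, 7 in CRP, 0 in cluster 4 and 13 in PCV. With doublets kept 0 were called in capillary EC, 8 in CRP, 42 in cluster 11, 35 in cluster 4, 10 in pericytes and 12 in PCV. Cells with *Xist* and no Y-linked UMIs gave 247 in capillary EC, 20 in CRP, 0 in pericytes and 17 in PCV, and the opposite cells 1 in PCV, the only class with enough of them. The causes were not tested. Some classes had no counterpart under some clusterings, and leaving out a library gave no count, since 1 library a group leaves no residual degrees of freedom.

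Unthinned shares were 14.4% for *Cyp1a1* in *Enpp6*+ arterial EC of replicate 1, 13.7, 34.5 and 20.2% for *Ahr* and 26.1, 13.5 and 19.1% for *Nqo1* in PCV, and 31.7% for *Cyp1b1* in FRC. At 5% mitochondrial UMIs *Cyp1b1* in capillary EC of replicate 1, *Nqo1* in control cells of cluster 3 and *Ahrr* in cluster 4 of replicate 2 went to 0 CPM. *Cyp1a1* had 0 UMIs in the 18 pericytes of replicate 1 without endothelial UMIs, a subset added after seeing the data and too small to show an absence. Depth limits *Ahrr* most, with 126 UMIs in all.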
